A study of Mus musculus with 6 samples.

Results

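miR-671, miR-149 and miR-129 are microRNAs, short RNAs that are cut from a hairpin precursor and guide the repression of messenger RNAs. Each hairpin can give a mature miRNA from its 5′ side (5p) and another from its 3′ side (3p). The 7 rows described here are all arms of these miRNAs in the count table of 1978 known mouse miRNAs: the 2 of miR-671 (mmu-miR-671-5p and mmu-miR-671-3p), the 2 of miR-149 (mmu-miR-149-5p and mmu-miR-149-3p), and the 3 of miR-129 (mmu-miR-129-5p, mmu-miR-129-1-3p and mmu-miR-129-2-3p). They were picked by a measured value, since an arm of each miRNA (the 3p arm of miR-671 and the 5p arms of miR-149 and miR-129) was lower in hypoxia than in control. The levels of these 3 arms in the 2 groups are therefore a description and carry no test. The question was whether the other 4 arms, which entered only as partners of the chosen ones, were lower too.

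The hypoxia group held 3 libraries of wild-type c-kit+ cardiac progenitor cells after 12 hours of hypoxia, and the control group held 3 libraries of the same kind of cells at 0 hours. The cells came from hearts of male C57BL/6 mice aged 4 to 6 weeks and were isolated with magnetic beads that carry an antibody to c-kit, a receptor tyrosine kinase. The sources used here do not give the oxygen level, the number of animals behind a library or any pooling. A p-value therefore speaks only of the variation among these 6 libraries, part of which may be technical. The treatment field of the labels reads hypoxia for both groups. The groups follow the titles and times, and time in culture and hypoxia cannot be told apart if the controls were taken at the start. The extraction protocol names exosomal RNA and the design text cellular RNA, and which of these was sequenced was not settled. Table columns carry a digit and a letter. The digit 0 was read as the control time and 1 as hypoxia, a reading on which every direction below rests, and libraries are called by group and letter (A, B, C).

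In the canonical pathway the enzyme Drosha cuts a hairpin out of a longer transcript and Dicer removes its loop, after which an arm is loaded into an Argonaute protein and the other is usually degraded. Both arms start out in equal number, so the balance of their steady levels reflects loading and stability. The seed, bases 2 to 8, carries most of the target recognition. miR-671-5p is known for guiding cleavage of the circular RNA Cdr1as, an abundant sponge of miR-7. miR-129-5p is best known from neurons, where in rodents it represses the potassium channel Kv1.1, and from human tumours, where it represses the cell cycle kinase CDK6. miR-149-5p has been studied as a repressor of GIT1 in human breast cancer cells, and miR-149-3p as a p53-induced miRNA in human melanoma cells.

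The mature sequences of 6 of the 7 arms were found in RefSeq (GRCm38.p6), and they are shown because the arms of a hairpin carry unrelated seeds and because miR-149-3p is unusually rich in guanine. Seeds are in capitals, and miR-129-1-3p is named only.
miR-671-3p: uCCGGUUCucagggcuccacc
miR-671-5p: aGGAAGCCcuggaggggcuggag
miR-149-5p: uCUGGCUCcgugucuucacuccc
miR-149-3p: gAGGGAGGgacgggggcggugc
miR-129-5p: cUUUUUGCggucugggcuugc
miR-129-2-3p: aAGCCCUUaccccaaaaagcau

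None of these 6 arms shared its seed with another of them. In the Mir129-1 hairpin printed below, the stretch that matches miR-129-2-3p holds the same seed bases. The mature sequence of miR-129-1-3p was not found, so its own seed is not given. Among the 1679 of 1978 table miRNAs that have a RefSeq mature sequence, which do not include miR-129-1-3p, others with the seed of a listed arm were found for miR-149-3p alone. They were miR-7016-5p and miR-6967-5p, with 0 and 13 counts over the 6 libraries, and miR-1943-5p with 441. The miR-1943-5p level was 4.30 ± 1.57 CPM in hypoxia and 5.85 ± 2.50 CPM in control (SD, n = 3 each; log2 fold change -0.44, SE 0.39, edgeR adjusted p = 0.94), where CPM is the count relative to the library size after TMM scaling.

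The hairpins are shown to place the arms, which are in capitals, except that in Mir129-1 only the 5p arm is marked.
Mir671: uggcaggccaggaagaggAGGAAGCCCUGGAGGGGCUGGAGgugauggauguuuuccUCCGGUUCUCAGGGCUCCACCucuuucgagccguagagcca
Mir149: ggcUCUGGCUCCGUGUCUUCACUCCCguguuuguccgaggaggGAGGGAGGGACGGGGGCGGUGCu
Mir129-1: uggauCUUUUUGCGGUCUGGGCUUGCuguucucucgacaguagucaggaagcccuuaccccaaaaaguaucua
Mir129-2: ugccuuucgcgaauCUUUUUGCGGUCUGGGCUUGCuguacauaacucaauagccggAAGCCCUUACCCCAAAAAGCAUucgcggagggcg

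In GRCm38 with GENCODE M21, Mir671 lies at chr5:24592114-24592211 on the plus strand, inside the coding part of exon 4 of Chpf2, which encodes an enzyme of chondroitin sulfate synthesis. An exon of a Smarcd3 transcript covers the same bases on the opposite strand. Mir149 lies at chr1:92850378-92850443 on the plus strand, in an intron of Gpc1, which encodes glypican-1, a heparan sulfate proteoglycan of the cell surface. Mir129-1 lies at chr6:29022619-29022691 on the plus strand, in exon 2 of the long noncoding RNA Gm3294. Mir129-2 lies at chr2:94241364-94241453 on the minus strand, in an intron of the long noncoding RNA Mir670hg. The 5p arm has 1 sequence at both miR-129 loci, so its counts cannot be assigned to a locus, whereas the 3p arms carry the locus in their names. The host messenger RNAs were not measured here.

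The 3 chosen arms were lower in every hypoxia library than in every control library. miR-671-3p stood at 20.3, 33.7 and 22.3 CPM in hypoxia A, B and C, and at 42.6, 58.6 and 46.5 CPM in control A, B and C. The highest hypoxia library, B, thus lay under the lowest control library, A, and B was the highest library of each group. The mean level was 25.4 ± 7.27 CPM in hypoxia and 49.2 ± 8.33 CPM in control (SD, n = 3 each). The log2 fold change was -0.95 (SE 0.26), or 0.517 of the control level. In such bulk libraries fewer cells with an arm and less of it per cell cannot be told apart.

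miR-149-5p stood at 12.8, 14.4 and 10.2 CPM in hypoxia A, B and C, and at 21.1, 24.0 and 18.4 CPM in control A, B and C. Here too B was the highest and C the lowest library of each group, and the groups did not overlap. The log2 fold change was -0.76 (SE 0.22), from means of 12.5 ± 2.11 CPM in hypoxia and 21.2 ± 2.79 CPM in control (SD, n = 3 each).

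miR-129-5p, the most abundant of the 7 arms by CPM, stood at 107, 84.7 and 82.4 CPM in hypoxia A, B and C, and at 164, 121 and 128 CPM in control A, B and C. Library A was the highest of each group for this miRNA, and the groups again did not overlap. Its mean level was 91.5 ± 13.7 CPM in hypoxia and 138 ± 22.7 CPM in control (SD, n = 3 each), and its log2 fold change was -0.59 (SE 0.21).

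**Figure D1:**
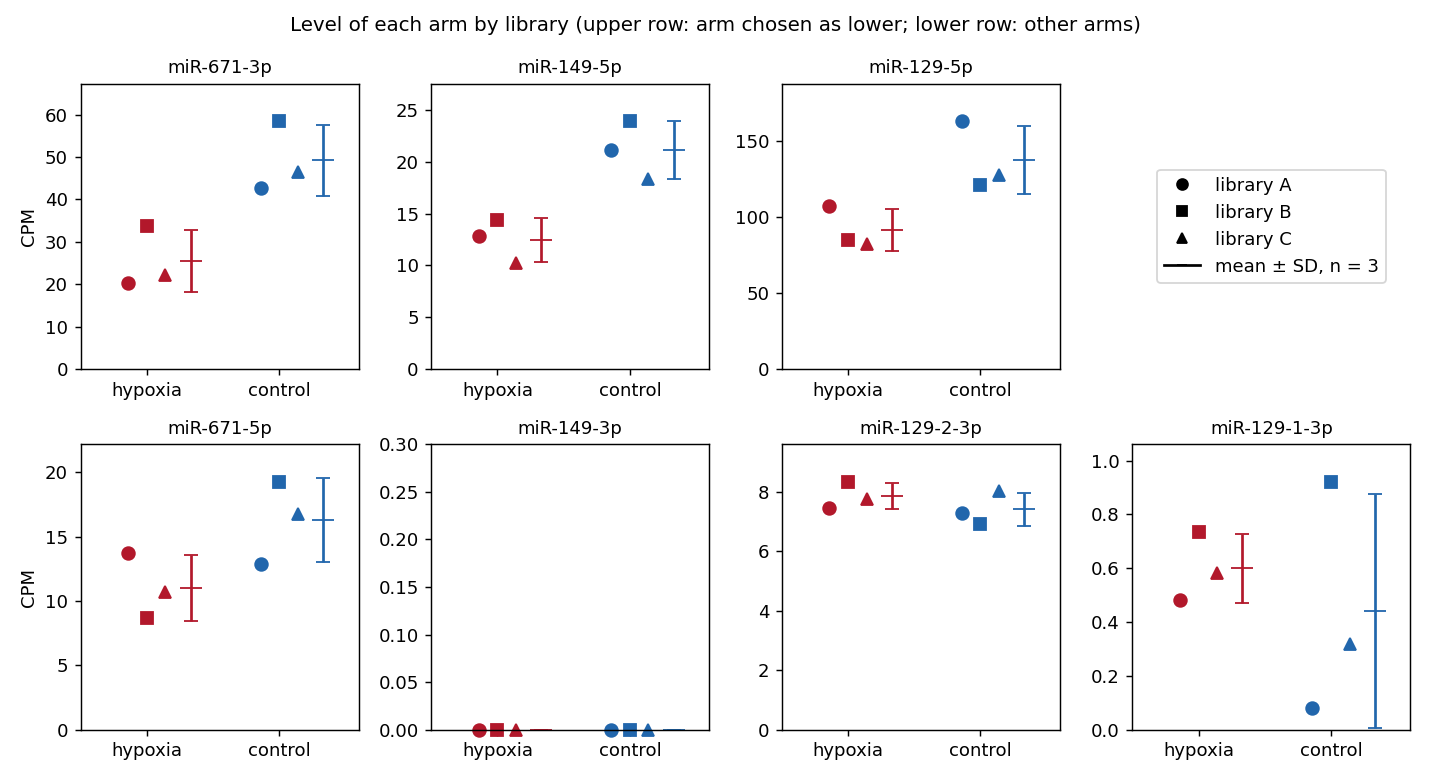
Level in CPM (linear axes from 0, a scale of its own in each panel) of the 7 arms in 3 hypoxia libraries (red, left) and 3 control libraries (blue, right), with a symbol for each letter and a bar for the mean ± SD (n = 3). The hypoxia and control points are apart in the 3 panels of the upper row, which were chosen for that, and overlap in the panels of the lower row, where miR-149-3p has 0 counts in all 6 libraries.

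Such a separation in the downward direction was found for 34 of 619 tested miRNAs (5.49%), and, since these 3 arms were picked for being lower, nothing is read from their share of it. Over all 619 miRNAs edgeR (quasi-likelihood test, Benjamini-Hochberg adjusted p under 0.05) called 0 (0%), with 42 at an unadjusted p under 0.05, while DESeq2 on the same miRNAs called 2, with 51 at that p. With the library letter as a block edgeR called 14, of which 8 (1.29%) were lower in hypoxia, and the 3 chosen arms were among these 8, from which nothing is read. Leaving out pair A or pair C took the 14 calls to 0, and leaving out pair B took them to 23.

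None of the 4 partner arms was called by edgeR, which called 0 of 619 miRNAs, and differences among these arms were not tested. miR-671-5p was lower on average with overlapping groups, miR-149-3p was not detected, miR-129-2-3p was level between the groups within its error, and miR-129-1-3p was close to the detection limit. Of these 4 only miR-671-5p and miR-129-2-3p had enough counts to be tested.

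miR-671-5p, the arm that targets Cdr1as, stood at 13.7, 8.65 and 10.7 CPM in hypoxia A, B and C, and at 12.9, 19.3 and 16.7 CPM in control A, B and C. Hypoxia A lay above control A, so the groups overlapped, while hypoxia B and C lay under all controls. The mean was 11.01 ± 2.55 CPM in hypoxia and 16.3 ± 3.23 CPM in control (SD, n = 3 each). The log2 fold change of -0.57 (SE 0.25, 95% interval -1.14 to 0.01) did not pass (edgeR adjusted p = 0.72 over 619 miRNAs). That interval, from the fit without the block, includes no change and also the -0.95 of the 3p arm. With the letter block the log2 fold change was -0.57 (SE 0.22, edgeR unadjusted p = 0.025, adjusted p = 0.17). That fit gave 132 of 619 miRNAs an unadjusted p under 0.05, and miR-671-5p was not called. Neither a fall nor its absence is therefore shown for the 5p arm.

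Within the letters the differences of the miR-671 arms came in different orders. The hypoxia minus control difference in log2 CPM of miR-671-3p was -1.07 in A, -0.79 in B and -1.06 in C, and that of miR-671-5p was 0.09 in A, -1.14 in B and -0.64 in C. The pair with the least fall of the 3p arm, B, was the one with the greatest fall of the 5p arm. Each difference compares single libraries and has no error of its own, and these orders were not tested. Summed over the arms, miR-671 stood at 34.0, 42.4 and 32.9 CPM in hypoxia A, B and C, and at 55.5, 77.8 and 63.2 CPM in control A, B and C.

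**Figure D2:**
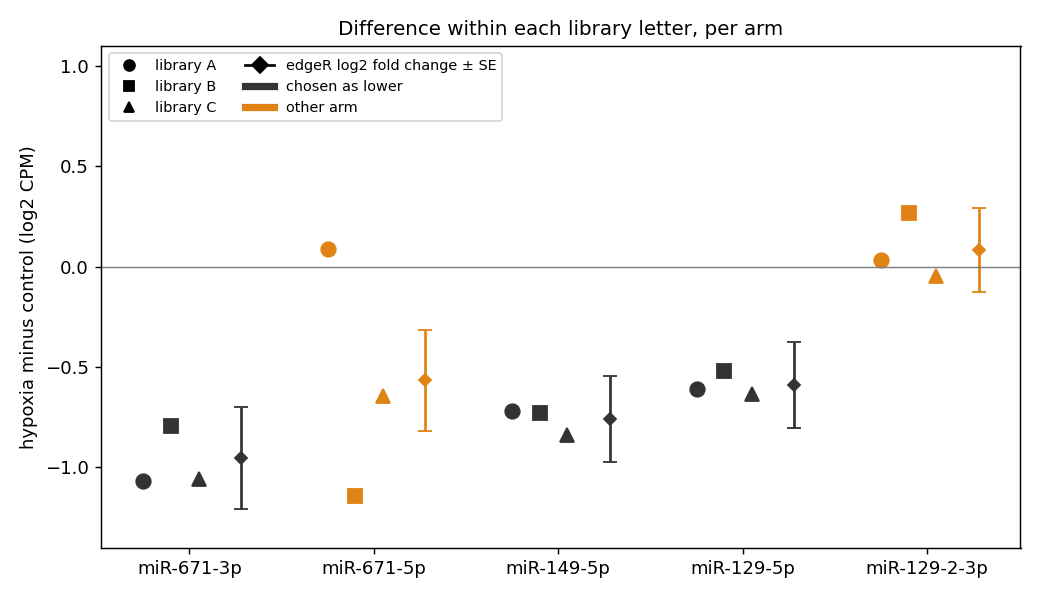
Hypoxia minus control difference in log2 CPM within letters A, B and C (symbols) and edgeR log2 fold change ± SE (diamonds) for the 3 chosen arms (dark) and the 2 tested partner arms (orange). The chosen arms lie between -1.07 and -0.52 in every letter, miR-671-5p spans -1.14 to 0.09, and miR-129-2-3p lies between -0.05 and 0.27.

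By counts, the 3p arm was the major arm of miR-671 in all 6 libraries. It held 59.6% (95% interval 55.5 to 63.7), 79.6% (76.4 to 82.5) and 67.6% (63.1 to 71.9) of both arms' counts in hypoxia A, B and C. In control A, B and C it held 76.8% (73.4 to 79.9), 75.2% (72.4 to 77.9) and 73.5% (70.7 to 76.2). The controls lay within a narrow band, with hypoxia A and C below it and hypoxia B above it. The means were 69.0% ± 10.04 in hypoxia and 75.2% ± 1.64 in control (SD, n = 3 each). The difference of -6.22 percentage points was not tested, as the 3p arm was chosen on this contrast. It was -11.5 points without hypoxia B and -1.57 points without hypoxia A. The intervals are exact Clopper-Pearson ones and hold counting error alone, because reads copied by PCR are not separate molecules.

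For miR-149 there was no partner arm to follow. miR-149-3p had 0 counts in every library, whereas miR-149-5p had 213, 235 and 141 counts in hypoxia A, B and C and 261, 312 and 289 in control A, B and C. A count of 0 allows up to 3 counts, which is 0.192, 0.177 and 0.228 CPM of the raw totals in hypoxia A, B and C, and 0.244, 0.207 and 0.198 CPM in control A, B and C. Against that floor in each library the 5p count was at least 71.0-, 78.3- and 47.0-fold higher than the 3p count in hypoxia A, B and C, and at least 87.0-, 104- and 96.3-fold higher in control A, B and C. These are ratios of counts, and whether both arms were captured equally well was not tested. A change of miR-149-3p between the groups was not detectable at this depth.

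The sequence of miR-149-3p has 15 guanines among 22 bases, with a longest run of 5, and a GC content of 81.8%. The GC content was 60.9% for miR-149-5p, 69.6% and 66.7% for the 5p and 3p arms of miR-671, 57.1% for miR-129-5p and 45.5% for miR-129-2-3p. Of 1679 table miRNAs with a RefSeq sequence, whose median GC content was 52.2%, 18 had at least the GC content of miR-149-3p. Of these 18, which include it, 10 had no count in any library (55.6%), and the most abundant, miR-7648-3p, had 11 counts over all 6 libraries. Among the other 1661 miRNAs 563 had no count (33.9%). Whether base composition had a part in the missing counts was not tested.

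Neither partner arm of miR-129-5p was lower on average in hypoxia. miR-129-2-3p stood at 7.45, 8.34 and 7.77 CPM in hypoxia A, B and C, and at 7.29, 6.92 and 8.02 CPM in control A, B and C. The libraries of both groups lay within the same narrow range, with hypoxia B the highest and control B the lowest. The mean was 7.85 ± 0.45 CPM in hypoxia and 7.41 ± 0.56 CPM in control (SD, n = 3 each). The log2 fold change was 0.08 (SE 0.21, 95% interval -0.39 to 0.56, edgeR adjusted p = 0.99). The -0.59 of miR-129-5p lies outside this interval but has an error of its own (SE 0.21). As the 5p arm was also chosen on this contrast, a difference between the arms was not tested and none is read from these values.

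miR-129-1-3p had 8, 12 and 8 counts in hypoxia A, B and C, and 1, 12 and 5 counts in control A, B and C, too few to pass the expression filter. These counts gave 0.60 ± 0.13 CPM in hypoxia and 0.44 ± 0.43 CPM in control (SD, n = 3 each). Control A, with 1 count, was the lowest and control B the highest library, so the control group spanned the whole range.

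The 3p counts, split by name between the 2 miR-129 loci, did not use the chosen arm. In the printed hairpins the matching stretch of Mir129-1 is nearly the same as miR-129-2-3p. How reads that match both were treated is not known, so the split by locus is uncertain. miR-129-2-3p held 93.9% (124 of 132 counts, 95% interval 88.4 to 97.3), 91.9% (136 of 148, 86.3 to 95.7) and 93.0% (107 of 115, 86.8 to 96.9) of the 3p counts in hypoxia A, B and C. In control A, B and C it held 98.9% (90 of 91, 94.0 to 99.97), 88.2% (90 of 102, 80.4 to 93.8) and 96.2% (126 of 131, 91.3 to 98.7). The mean share was 93.0% ± 1.03 in hypoxia and 94.4% ± 5.54 in control (SD, n = 3 each), -1.48 percentage points apart. This did not exceed the spread between libraries (two-sided exact permutation test, p = 0.7, where 0.1 is the smallest p that 3 against 3 allow), and it was 0.75 points the other way without control A, the library with 1 count of miR-129-1-3p.

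The arm balance of miR-129 leaned less to the 5p arm in the hypoxia libraries. miR-129-5p held 93.1%, 90.3% and 90.8% of all miR-129 counts in hypoxia A, B and C, and 95.7%, 93.9% and 93.9% in control A, B and C. The groups did not overlap, although hypoxia A (95% interval 91.9 to 94.2) came within the counting error of control B (92.7 to 95.03). The mean share was 91.4% ± 1.49 in hypoxia and 94.5% ± 1.03 in control (SD, n = 3 each). Like the miR-671 share it includes a chosen arm, and it was not tested.

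**Figure D3:**
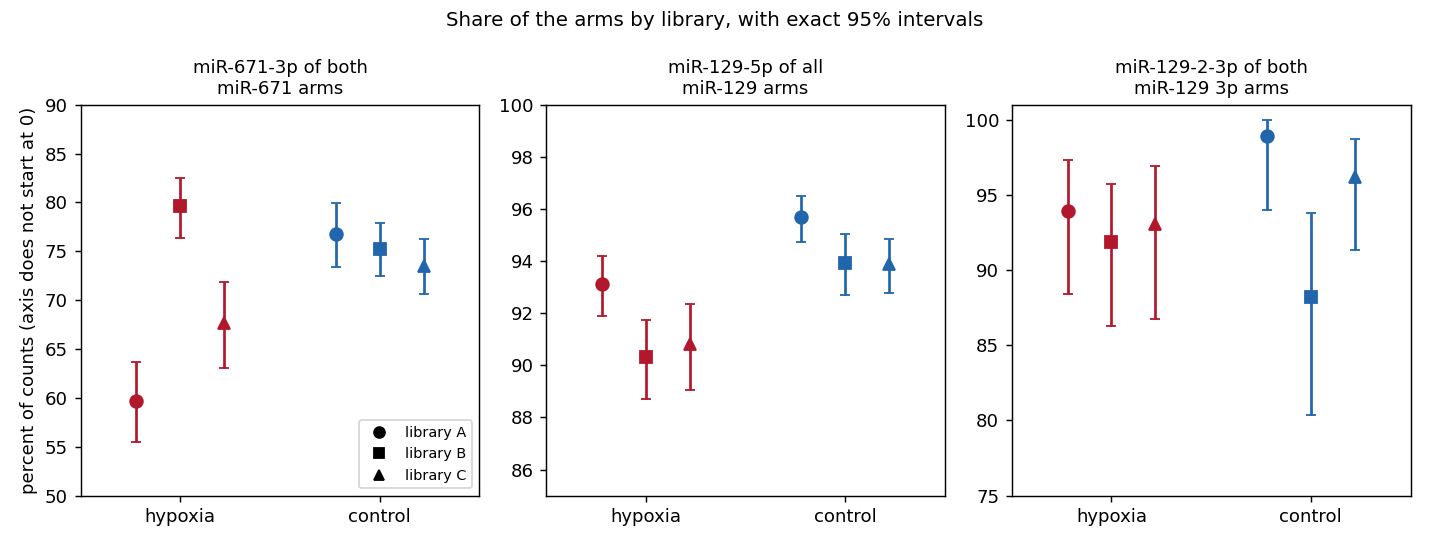
Percent of counts (axes do not start at 0) held by miR-671-3p among the miR-671 arms, by miR-129-5p among all miR-129 arms and by miR-129-2-3p among the miR-129 3p arms, in hypoxia (red, left) and control (blue, right) libraries A, B and C, with exact 95% intervals for counting error. The miR-671-3p share ran from 59.6% to 79.6% in hypoxia around the control band, the miR-129-5p share was lower in each hypoxia library, and the miR-129-2-3p shares overlapped.

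Other miRNAs of the Mir129-2 locus were nearly absent. The annotation places Mir129b on the opposite strand within Mir129-2, where its 65 bases are the exact reverse complement of part of the 90-base hairpin. Its arms miR-129b-5p and miR-129b-3p had 0 counts in every library. The named miRNA of the host transcript, miR-670, had 1 count of its 5p arm in hypoxia B and no other count.

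To see how often the arms of a hairpin moved alike, the 188 other hairpins with a tested 5p and 3p arm of the same name were described in the same fit. Their arms had log2 fold changes of the same sign in 98 (52.1%), and 45 had both arms below 0. Across these hairpins, which share libraries and scaling and are not independent replicates, the log2 fold changes of the arms had a Pearson correlation of 0.27. A hairpin whose lower arm was at or below -0.5, as in miR-671 and miR-129, occurred 17 times. In 10 of these 17 (58.8%) the other arm was below 0, and its median log2 fold change was -0.17, within a range of -0.69 to 0.63, against -0.64 for the lower arm. Some of the 188 repeat the arm values of another hairpin exactly, so they are not all distinct. miR-486a and miR-486b, equal in both arms (5p -0.25, 3p -0.54), are both among the 17 and the 10. These values moved with the filter and with single libraries. The correlation ran from 0.06 without the low-count filter to 0.42 without hypoxia A. The median of the other arm was 0.17 (2 of 5 below 0) among hairpins whose arms had a mean of at least 50 counts, and 0.07 (71 of 151 below 0) without the low-count filter. With a library left out the other arm was below 0 in 62.5% (without hypoxia C) to 82.4% (without hypoxia A). Both arms at or below -0.5, as in miR-671, were found in 1 of the 188, miR-877 (5p -0.69, 3p -0.999), a mirtron, which is a hairpin released by splicing. That count was 5 without control A or control B, 4 without control C or hypoxia C, 6 without hypoxia A, 1 without hypoxia B and 25 without the low-count filter. miR-877, miR-486a, miR-486b and miR-96 are named after their values were seen. Nothing particular to miR-671, miR-149 or miR-129 is shown by these counts.

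**Figure D4:**
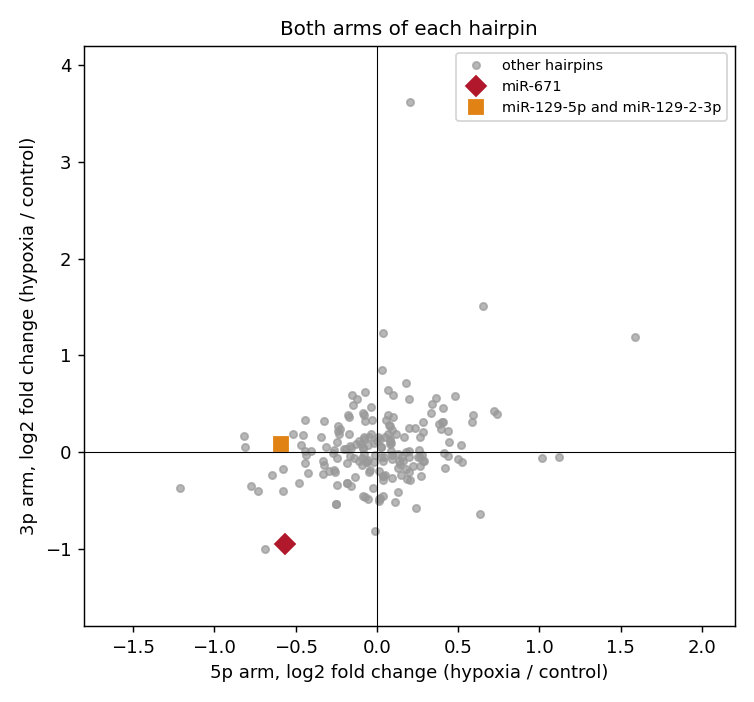
Log2 fold change (hypoxia over control) of the 3p arm against that of the 5p arm for 188 other hairpins (grey), miR-671 (red diamond) and miR-129-5p with miR-129-2-3p (orange square). miR-671 lies at -0.57 (5p) and -0.95 (3p) and the miR-129 point at -0.59 (5p) and 0.08 (3p), and the grey points spread over all 4 quadrants, with 52.1% of hairpins in the quadrants of equal sign. The grey point far above the others is miR-96, at 0.20 (5p) and 3.62 (3p).

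By CPM, which needs no length scaling here since mature miRNAs are of nearly equal length, the arms ranked miR-129-5p, miR-671-3p, miR-149-5p, miR-671-5p, miR-129-2-3p, miR-129-1-3p and miR-149-3p. Their places by mean CPM in the whole table were 172 for miR-129-5p, 257 for miR-671-3p, 323 for miR-149-5p, 335 for miR-671-5p, 394 for miR-129-2-3p and 637 for miR-129-1-3p. Whether different sequences were captured equally well was not tested, so this is an order of counts. miR-129-5p was above miR-671-3p, and miR-671-3p above miR-149-5p, in every library, and miR-671-5p was above miR-129-2-3p in every library. The neighbours miR-149-5p and miR-671-5p did not differ beyond their spread, since miR-671-5p was the higher one in hypoxia A and C and the lower one in hypoxia B and in all controls. No other row of the table had counts within 1% of those of a detected arm in every library, so no read sharing of that kind was seen.

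Likeness of pattern was measured as the root mean square difference of log2 CPM, centred on its mean, over the 6 libraries, among 358 miRNAs of at least 10 CPM. miR-671-3p and miR-149-5p differed by 0.23, less than miR-671-3p from any of the 358. miR-149-5p and miR-129-5p differed by 0.26, and miR-671-3p and miR-129-5p by 0.45. These arms were all picked for being lower in hypoxia over the same 6 libraries, and the 358 were not. Small distances among the chosen arms are therefore partly built in, and nothing is read from them. The 358 miRNAs had median distances of 0.62 from miR-671-3p, 0.50 from miR-149-5p and 0.44 from miR-129-5p. The 0.45 between miR-671-3p and miR-129-5p was thus below the median from miR-671-3p and close to the median from miR-129-5p.

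Nearest to miR-671-3p were miR-195a-3p (0.29), let-7c-1-3p (0.30) and miR-1964-3p (0.30). Nearest to miR-149-5p were miR-1964-3p (0.16), miR-212-5p (0.20) and miR-151-3p (0.21). Nearest to miR-129-5p were miR-125b-1-3p (0.11), miR-495-3p (0.12) and miR-450b-5p (0.16). Being like a lower arm, all 8 were lower in hypoxia, with log2 fold changes from -0.64 for miR-125b-1-3p to -0.40 for miR-212-5p. miR-1964-3p, near both miR-671-3p and miR-149-5p, averaged 40.9 ± 11.3 CPM in hypoxia and 59.0 ± 8.88 CPM in control (SD, n = 3 each). miR-125b-1-3p averaged 489 ± 127 CPM in hypoxia and 765 ± 100.1 CPM in control (SD, n = 3 each). These are resemblances over 6 libraries chosen after the contrast was known, and carry no test.

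miR-129 is known mainly from neural tissue, and other neural-enriched miRNAs went both ways. Of 14 such miRNAs 11 were tested and 0 were called by edgeR, with 7 above 0 and 4 below, and the median log2 fold change was 0.08, beside 0.01 over all 619 miRNAs. miR-128-3p averaged 397 ± 38.5 CPM in hypoxia and 424 ± 24.3 CPM in control (log2 fold change -0.10, SE 0.17, edgeR adjusted p = 0.99), and miR-9-5p averaged 30.4 ± 8.90 CPM in hypoxia and 26.8 ± 9.27 CPM in control (SD, n = 3 each; log2 fold change 0.18, SE 0.31, edgeR adjusted p = 0.99). miR-9-3p, the other arm of miR-9, averaged 10.4 ± 2.61 CPM in hypoxia and 6.36 ± 1.79 CPM in control (SD, n = 3 each). Its log2 fold change of 0.71 (SE 0.30) did not pass (edgeR adjusted p = 0.72, or 0.060 with the block). Other tested ones had log2 fold changes of 0.46 (SE 0.54) for miR-135a-5p, -0.10 (SE 0.26) for miR-218-5p, -0.17 (SE 0.62) for miR-219a-5p and -0.18 (SE 0.58) for miR-135b-5p. miR-138-5p also went the other way from miR-129-5p, with 71.5 ± 7.09 CPM in hypoxia and 47.1 ± 5.89 CPM in control (SD, n = 3 each). Its log2 fold change of 0.60 (SE 0.20) did not pass without the block (edgeR adjusted p = 0.65) and did with it (0.61, edgeR adjusted p = 0.037), though no miRNA passed the blocked fit without pair A or without pair C. Neuron-defining miR-124-3p was low, with 3.29 ± 2.63 CPM in hypoxia and 1.598 ± 0.93 CPM in control (SD, n = 3 each; log2 fold change 1.02, SE 0.72, edgeR adjusted p = 0.91).

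miR-7, which Cdr1as binds and whose level therefore belongs to the same circuit as miR-671-5p, was level between the groups within its error. miR-7a-5p averaged 2962 ± 647 CPM in hypoxia and 2797 ± 61.9 CPM in control (log2 fold change 0.08, SE 0.18, edgeR adjusted p = 0.99), and miR-7b-5p averaged 12.9 ± 2.67 CPM in hypoxia and 12.3 ± 3.64 CPM in control (log2 fold change 0.07, SE 0.28, edgeR adjusted p = 0.99; SD, n = 3 each). By CPM, miR-7a-5p was thus far more abundant than miR-671-5p in every library. Cdr1as itself was not measured here.

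The libraries held 12285970 to 16975987 counts of known miRNAs. Marker miRNAs of other cell types were summed beside the arms. Endothelial markers (2 of 2 tested) ran from 200685 to 238090 CPM in hypoxia and from 227224 to 249670 in control, and fibroblast and smooth muscle markers (5 of 5 tested) from 26575 to 50353 CPM in hypoxia and from 26075 to 57427 in control. Cardiomyocyte markers (4 of 6 tested) ran from 104 to 176 CPM in hypoxia and from 77.2 to 172 in control. All 4 tested ones had log2 fold changes above 0, with a median of 0.54 beside 0.01 over all 619 miRNAs: 1.17 (SE 0.45) for miR-133b-3p, 0.56 (SE 0.37) for miR-133a-3p, 0.52 (SE 0.51) for miR-499-5p and 0.27 (SE 0.34) for miR-1a-3p, none of which passed (edgeR adjusted p from 0.66 to 0.99). The heart muscle miRNAs miR-208a-3p and miR-208b-3p had 19 and 4 counts over the hypoxia libraries and 9 and 2 over the control libraries. Blood markers (5 of 7 tested) ran from 42.6 to 56.8 CPM in hypoxia and from 49.4 to 55.0 in control, and epithelial markers (4 of 6 tested) from 6.69 to 8.20 CPM in hypoxia and from 4.45 to 10.5 in control. The neural list ran from 3965 to 5415 CPM in hypoxia and from 4372 to 4760 in control. The summed levels of the groups overlapped for each list, no marker was at 0 in all libraries, and edgeR without the block called 0 markers, while with it miR-138-5p of the neural list passed. The lists hold no marker of c-kit+ progenitors, so the labelled cell type was not checked. The part of other cell types in the lower arms was not tested.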

How the data were processed

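Small RNA libraries of 3 hypoxia and 3 control samples were used. The authors deposited raw counts per known mature miRNA as whole numbers with 1 column per library, totalling 12285970 to 16975987. Per the submitters' processing notes, mm10, bcl2fastq 2.0 and DESeq2 were used, with no role stated. The aligner, counter, annotation release and treatment of multiply matching reads were not given in the sources used here. A table of predicted miRNAs was not used. Counts were filtered with filterByExpr (619 of 1978 kept), scaled by TMM and tested with edgeR 4.0.16 in R 4.3.3 (quasi-likelihood, Benjamini-Hochberg adjustment over all 619), after the code was tested on simulated data. SE is the absolute log2 fold change over the square root of F. Distances used log2 CPM with a prior count of 2. Alternatives were DESeq2 1.42.0, other scaling, no filter, a letter block, and left-out libraries or pairs.

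The column letters match no replicate number of the titles. Deviations from the group means correlated at 0.52, 0.43 and 0.28 for same-letter libraries and between -0.44 and 0.12 otherwise, and by the limit of 0.1 the letters were taken to pair the libraries. No 2 libraries were copies (smallest chi-square over degrees of freedom 85.9). The arms, lists and naming rule (the 7 arms, the 3 nearest miRNAs of each chosen arm, sharers of a seed, and tested neural miRNAs) were chosen with earlier results of these data known.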

Additional observations from a re-analysis of the deposited data

How the results depend on the processing

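The number of known miRNAs called was 0 of 619 by edgeR without a block, 2 with DESeq2, 4 without the low-count filter, 14 with the replicate block and 23 with the replicate block without pair B. It was 0 under the other 10 alternatives, pair A or pair C left out of the blocked fit among them. The chosen arms stayed below 0 under all 14 alternatives, with log2 fold changes from -1.24 to -0.82 for miR-671-3p, -0.91 to -0.66 for miR-149-5p and -0.72 to -0.48 for miR-129-5p. As they were picked for being lower in these same libraries, their sign was largely set by the choice, and nothing is read from it. miR-671-5p also stayed below 0 (-0.90 to -0.31) and was never called (adjusted p from 0.066 to 1.00; 0.17 with the replicate block). miR-129-2-3p was never called (adjusted p from 0.78 to 1.00; 0.84 with the replicate block), and its log2 fold change turned to -0.035 with the replicate block without pair B, against up to 0.14 elsewhere. The cause was not tested. The share of miR-129-2-3p among 3p counts differed by -4.58 to 0.75 percentage points with a library left out, the 0.75 being without control A, and by -1.48 within letters (exact sign-flip permutation p = 0.75, smallest possible 0.25). The miR-671-3p share differed by -11.5 points without hypoxia B and by -1.57 without hypoxia A. The share of hairpins with arms of equal sign ran from 48.4% to 61.1%. miR-149-3p and miR-129-1-3p did not pass the low-count filter and were not tested with it.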
